A study of Phyllostachys nigra with 21 samples.

Results

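The polyphenol oxidase (PPO) genes of black bamboo (Phyllostachys nigra, Pn) were described in culms before and during a temperature treatment. Members were the genes whose deposited description contains polyphenol oxidase or catechol oxidase in any case, which gave 3 of 42460 genes: PH02Gene01841, PH02Gene03906, and PH02Gene48718. RNA-seq was performed on culms in 7 groups of 3 libraries: culms taken before treatment (CK), culms kept at 4 °C (low temperature, LT) for 1, 15, or 25 days (LT1d, LT15d, and LT25d), and culms kept at 25 °C (room temperature, RT) for the same times (RT1d, RT15d, and RT25d). According to the methods of the study, all plants were potted, greenhouse-grown Pn whose culms were immature and green when the chambers were started. The study describes the shoots of each treatment as biological replicates and speaks of biological repeats for the RNA-seq. Replicates are numbered in the labels, but the labels do not state that they came from separate plants. The p-values thus measure the spread between these libraries, which may be technical in part. In bulk culm RNA, fewer cells of a type and less RNA per cell cannot be told apart.

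PPOs are type 3 copper enzymes that use molecular oxygen to turn o-diphenols into o-quinones. The quinones then polymerise without further catalysis into the brown to black pigments seen in bruised fruit, and PPOs are therefore discussed as candidates for the formation of melanin in plants. Most plant PPOs carry a transit peptide that leads them to the thylakoid lumen of plastids, apart from the phenolic substrates in the vacuole. In rice, a PPO gene controls the phenol reaction of the hull, and in wheat PPO of the grain discolours dough, whereas Arabidopsis has no PPO gene.

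Each of the 3 genes was annotated in the file with KEGG ortholog K00422 and enzyme number EC:1.10.3.1, that of catechol oxidase, and with 2 GO functions, the oxidation of monophenols and of L-DOPA. The genes lie on different scaffolds of the moso bamboo (P. edulis) genome version to which the authors mapped their reads. PH02Gene01841 is on the minus strand of hic_scaffold_23 from base 9638039 to 9640407, a span of 2369 bases, and its best protein match was a wheat PPO. PH02Gene48718 is on the plus strand of hic_scaffold_2 from 4262442 to 4264275 (1834 bases) and also matched a wheat PPO. PH02Gene03906 is on the minus strand of hic_scaffold_14 from 63444148 to 63445007 and matched a predicted chloroplastic-like PPO of a wild rice. Its span of 860 bases was the shortest. Another gene, PH02Gene28608, has the same ortholog number but is described as a hypothetical protein and falls outside the rule. It was looked at after the values were seen and had 7 counts in all, from 2 of the 21 libraries.

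Total counts per library were 33957497 to 50338658. CK replicate 1 stood apart from the other CK libraries, with a Pearson r on log2(FPKM + 1) across the tested genes of 0.888 and 0.905 with CK replicates 2 and 3, against 0.985 between those 2 libraries (genes are not independent replicates). Tests of the PPO genes against CK are therefore also given without CK replicate 1. Within the other groups the lowest r was 0.925 in RT25d, 0.967 in RT1d, and 0.968 in LT1d. It was 0.991 to 0.993 in LT15d, RT15d, and LT25d, so the small SDs there may be technical in part. Those are the groups summed to 1 library each in an alternative fit. Chlorophyll a-b binding protein genes, markers of green cells, summed to between 5.36 and 12.98 FPKM in LT1d and between 44.1 and 697 FPKM in the other groups, and 10 of these 14 genes had a mean of at least 1 FPKM. The 2 genes of the small subunit of Rubisco, also taken as markers of green cells, summed to at most 6.07 FPKM, highest in LT25d. Their sum in LT1d was 1.87 to 2.72 FPKM, against 0.622 to 0.972 FPKM in CK and 0.220 to 2.11 FPKM in RT1d. The 2 sets of green cell markers thus differed for LT1d. The markers of secondary walls (cellulose synthase A subunits 4, 7, and 9, at most 6.22 FPKM summed over 3 genes) and of root endodermis (Casparian strip membrane proteins, at most 3.42 FPKM summed over 4 genes) were low, and none of these marker genes was at 0 in every library. The part of these marker differences in the PPO results was not tested.

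Levels are given as FPKM, which scale the fragments of a gene by its transcript length and by the mapped fragments of the library and allow genes of different length to be compared. PH02Gene01841 reached the highest level of the PPO genes and had 0, 55.0, and 71.5 FPKM in CK, although PH02Gene03906 was the more abundant in CK replicate 1, LT1d, and RT25d. On Day 1 it had 0.0459, 0.232, and 0.294 FPKM in LT1d, against 2.44, 1.60, and 4.75 FPKM in RT1d. On Day 15 the values were 0.194, 0.313, and 0.303 FPKM in LT15d, against 1.18, 1.19, and 1.40 FPKM in RT15d. The LT libraries were thus below all RT libraries on both days. Here and below, the share of all genes whose libraries separate in such a way was not counted. On Day 25 the order was turned, with 7.63, 7.18, and 8.005 FPKM in LT25d, against 0, 0.0395, and 0 FPKM in RT25d. Every LT25d library exceeded every RT library of all 3 days. Among the tested genes of a library, PH02Gene01841 stood at percentiles 93.9 and 95.8 in CK replicates 2 and 3, at 52.0 to 55.1 in LT25d, and at 0.787 to 1.79 in RT25d.

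Ordered by mean FPKM, PH02Gene01841 was highest in CK (42.2 ± 37.4, SD, n = 3 here and below), then LT25d (7.60 ± 0.413), RT1d (2.93 ± 1.63), RT15d (1.25 ± 0.125), LT15d (0.270 ± 0.0662), LT1d (0.191 ± 0.129), and RT25d (0.0132 ± 0.0228). Libraries of neighbouring groups in this order overlapped between CK and LT25d, where CK replicate 1 lay at 0, and between LT15d and LT1d. They were apart at the other steps. The groups at the low end rest on few counts, with 6 to 36 counts per library in LT1d and LT15d and a single library with 4 counts in RT25d.

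**Figure D1:**
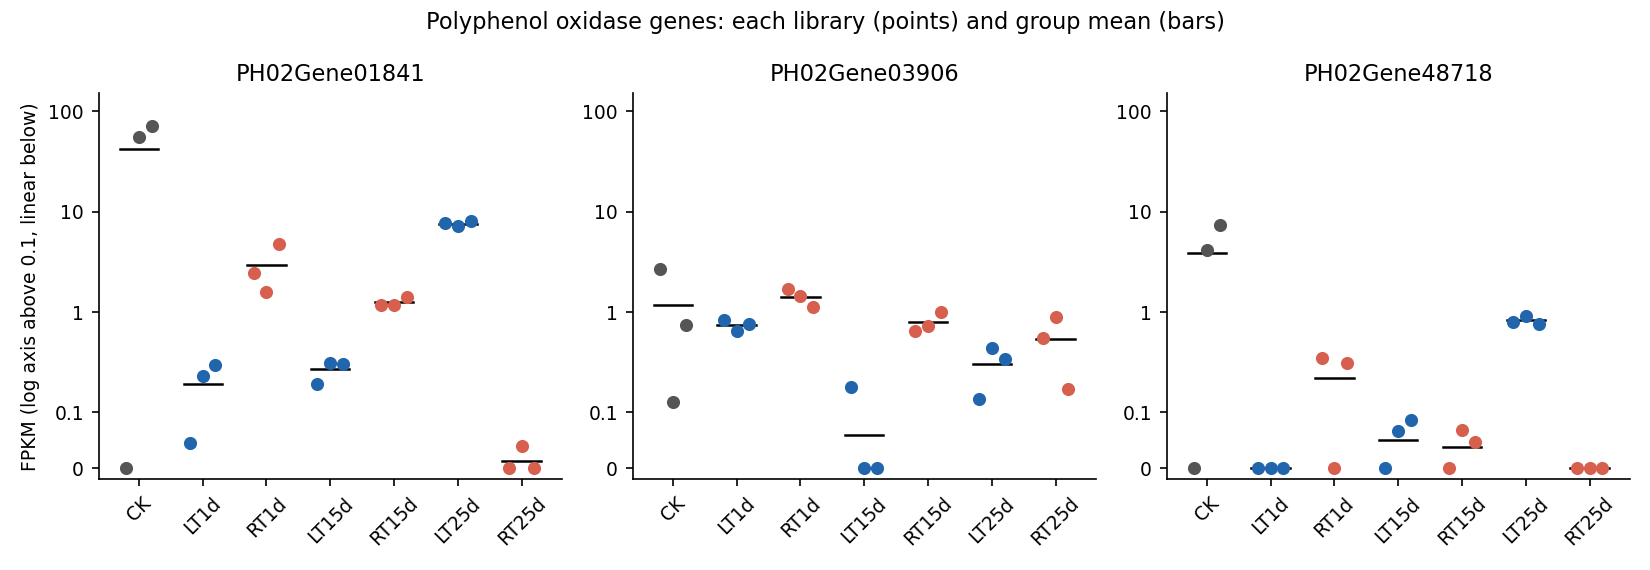
FPKM of the 3 PPO genes in each library (points; grey, CK; blue, LT; red, RT) and the mean of each group (black bars). The vertical axis is logarithmic above 0.1 FPKM and linear below. PH02Gene01841 and PH02Gene48718 are high in 2 of 3 CK libraries and in LT25d, whereas PH02Gene03906 is at most 1.70 FPKM outside CK replicate 1.

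PH02Gene48718 was measured at a lower level with a similar outline. It had 0, 4.18, and 7.31 FPKM in CK. On Day 1 it was at 0 in the 3 LT1d libraries, against 0.347, 0, and 0.309 FPKM in RT1d. On Day 15 it had 0, 0.0658, and 0.0866 FPKM in LT15d, against 0, 0.0679, and 0.0461 FPKM in RT15d. These low values overlapped on both days. On Day 25 it had 0.793, 0.917, and 0.766 FPKM in LT25d, against 0 in all RT25d libraries. Among the treated groups it was thus highest in LT25d, and the LT25d libraries lay above every other treated library. Since only 2 libraries, both of CK, reached 1 FPKM, PH02Gene48718 did not pass the filter on low values (at least 1 FPKM in at least 3 libraries) and was not part of the main test.

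The levels of the 2 genes matched to wheat PPOs were also set against each other. In the 5 libraries with at least 5 FPKM of PH02Gene01841, the FPKM of PH02Gene48718 was 7.60% to 12.8% of that of PH02Gene01841, and these libraries come from CK and LT25d only. In the 16 other libraries PH02Gene48718 was at most 0.347 FPKM and was at 0 in 10 of them, among them RT1d replicate 2, with 163 counts of PH02Gene01841. In the 6 of these libraries with both genes above 0, the percentage was 3.30% to 28.6%. Over the 21 libraries the log2(FPKM + 1) values of both genes had a Pearson r of 0.946 and a Spearman rho of 0.868, and over the 18 treated libraries an r of 0.910 and a rho of 0.817. These points share groups, libraries, and scaling, so the correlation is a description. The sequences of the 2 genes were not compared here, and how reads that match several genes were counted is not stated, so a share of reads from PH02Gene01841 in the level of PH02Gene48718 was not tested.

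**Figure D2:**
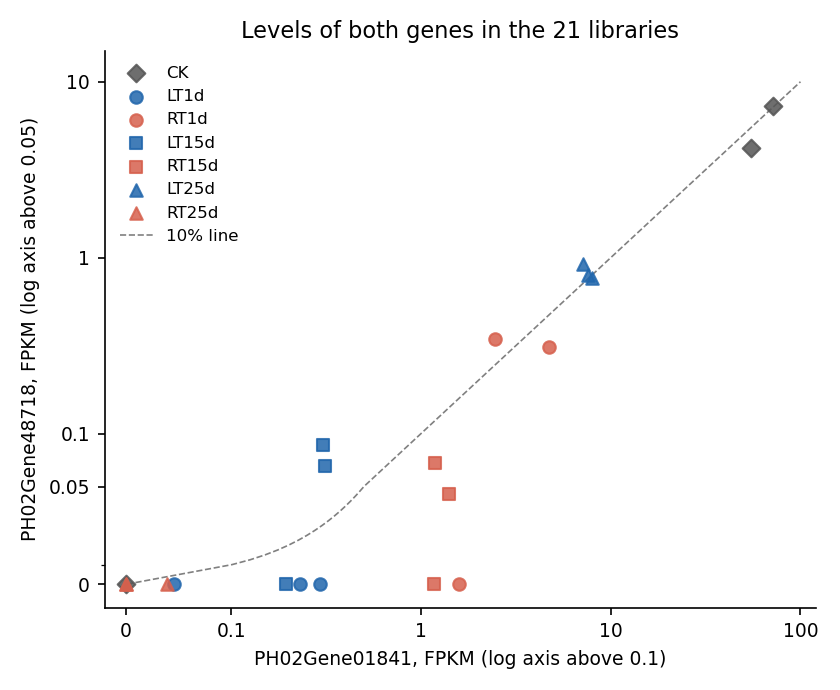
FPKM of PH02Gene48718 (vertical, log axis above 0.05) against that of PH02Gene01841 (horizontal, log axis above 0.1) in the 21 libraries, with colour for temperature and shape for day. The 5 libraries at the upper right, 2 of CK and 3 of LT25d, lie near the dashed line of 10%, and CK replicate 1 lies at 0 with the RT25d libraries.

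PH02Gene03906 differed in outline from both. It had 2.67, 0.126, and 0.741 FPKM in CK, and CK replicate 1, where the other 2 genes were at 0, held its highest value. On Day 1 it had 0.832, 0.649, and 0.764 FPKM in LT1d, against 1.70, 1.45, and 1.13 FPKM in RT1d. On Day 15 it had 0.178, 0, and 0 FPKM in LT15d, against 0.640, 0.731, and 1.01 FPKM in RT15d. In FPKM the LT libraries lay below the RT libraries on both days without overlap. FPKM leave out the TMM factors of the test below. These factors were 0.809 to 0.842 in LT1d and 1.14 to 1.15 in RT1d. The log2 fold change of PH02Gene03906 on Day 1 was −0.41 with TMM and −0.88 with library size only. The share of all genes without such overlap was not counted. On Day 25 the groups overlapped, with 0.135, 0.440, and 0.343 FPKM in LT25d, against 0.550, 0.895, and 0.172 FPKM in RT25d.

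By mean FPKM the order for PH02Gene03906 was RT1d (1.43), CK (1.18), RT15d (0.793), LT1d (0.748), RT25d (0.539), LT25d (0.306), and LT15d (0.0593), and the libraries of each pair of neighbours in this order overlapped. The gene passed the filter through 5 libraries, which were CK replicate 1, the 3 RT1d libraries, and RT15d replicate 3. Its counts were 0 to 69 per library, so small differences were not detectable at this depth. Its log2(FPKM + 1) values had an r of −0.14 with PH02Gene01841 and −0.18 with PH02Gene48718 over the 21 libraries.

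The 3 genes were also summed, as a measure of PPO transcripts as a whole. The sum was 0.939 ± 0.103 FPKM in LT1d, against 4.58 ± 1.58 FPKM in RT1d. It was 0.380 ± 0.00918 FPKM in LT15d, against 2.08 ± 0.328 FPKM in RT15d. On Day 25 it was 8.74 ± 0.328 FPKM in LT25d, against 0.552 ± 0.381 FPKM in RT25d (SD, n = 3 each). The libraries did not overlap on any day, and the exact two-sided permutation test gave p = 0.1 on each of the 3 days, which is the smallest p that 3 against 3 libraries allow. As FPKM, the sums leave out the TMM factors of the test below. The composition of the sum was described without a test. In RT25d it rests on 4 counts of PH02Gene01841 and 44 counts of PH02Gene03906. PH02Gene01841 made up 84.1% to 89.2% of the sum in LT25d, against 0% to 4.23% in RT25d, where PH02Gene03906 made up the remainder. In LT1d, PH02Gene03906 made up 72.2% to 94.8%, against 18.3% to 47.5% in RT1d.

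Differential expression was tested on estimated counts, by the quasi-likelihood F test of edgeR with Benjamini-Hochberg adjustment over the 29913 genes that passed the filter. A gene was called where the adjusted p was at most 0.05 and the absolute log2 fold change at least 1. The first question was how LT culms differed from RT culms of the same day. PH02Gene01841 was lower in LT1d than in RT1d by a log2 fold change of −3.42 (SE 1.31, adjusted p = 0.0290), about 10.7-fold, and the difference was called. PH02Gene03906 differed by −0.41 (SE 0.79, adjusted p = 0.664) on Day 1 and was not called. Thus 1 of the 2 tested PPO genes was called on a day on which 44.2% of all tested genes were called. The call of PH02Gene01841 was lost without any of the LT1d libraries or without RT1d replicate 3 (adjusted p = 0.0513 to 0.102, log2 fold change −3.90 to −2.87). Limma on log2(FPKM + 1) did not call it either, and 10 of 17 alternatives kept the call (adjusted p = 0.00299 to 0.137).

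On Day 15 the other of the 2 genes was called, which alone shows no difference between the days (tested below). PH02Gene03906 was lower in LT15d than in RT15d by a log2 fold change of −3.29 (SE 1.02, adjusted p = 0.00914) and was called. It had 5 counts over the 3 LT15d libraries, against 62 counts in RT15d. Taking 4 counts, the most frequent count above 0, as 1 read pair, its ratio of LT15d to RT15d was 0.0757 with a 95% exact interval of 0.00181 to 0.487, which covers counting error only. PH02Gene01841 was lower by −1.80 (SE 1.23, adjusted p = 0.210), which was not called, and 2 SE on either side reached from −4.26 to 0.66. Again 1 of the 2 tested genes was called, against 40.1% of all genes. Of 16 alternatives, 14 kept the call of PH02Gene03906 (adjusted p = 0.00157 to 0.136), and limma on log2(FPKM + 1) and the fit with LT15d, LT25d, and RT15d summed did not. Without LT15d replicate 1, which held all 5 counts of that group, the log2 fold change was −7.30. That size depends on how counts near 0 are handled.

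On Day 25 PH02Gene01841 was higher in LT25d than in RT25d and was called, with a fitted log2 fold change of 9.11 (SE 1.85, adjusted p = 0.000668). It had 766, 811, and 832 counts in LT25d, against 0, 4, and 0 counts in RT25d, so the fitted size depends on how counts near 0 are handled. With 602 read pairs against 1 on the same scale, the ratio was 611 with a 95% exact interval of 109 to 24186 for counting error. The call was kept when each of the 6 libraries was left out (log2 fold change 8.57 to 12.47). PH02Gene03906 differed by −0.69 (SE 0.84, adjusted p = 0.527) and was not called, so 1 of 2 was called, against 24.5% of all genes. For PH02Gene48718, a fit without the filter gave a log2 fold change of 9.04 (SE 2.49, adjusted p = 0.0113) for LT25d against RT25d. Against a floor of 12 counts (3 read pairs) in each RT25d library, it was at least 6.21-fold higher in LT25d. On Days 1 and 15 the same fit called no difference for it (adjusted p = 0.0700 and 0.772).

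The difference in the LT effect between days was tested by interaction terms. For PH02Gene01841 the LT effect on Day 25 exceeded that on Day 15 by 10.91 on the log2 scale (SE 2.26, adjusted p = 0.000944) and that on Day 1 by 12.53 (SE 2.29, adjusted p = 0.000159), and both were called. Among all genes 29.7% and 44.9% were called for these 2 differences. The Day 15 effect did not differ detectably from the Day 1 effect (1.62, SE 1.805, adjusted p = 0.488), where 33.2% of genes were called. PH02Gene03906 was called for none of the 3 differences. Its nearest was Day 15 minus Day 1, at −2.88 (SE 1.29, adjusted p = 0.0756). Without LT15d replicate 1, the only LT15d library with counts for PH02Gene03906, this difference was −6.90 (adjusted p = 0.0089). Day 25 minus Day 15 was then 6.61 (adjusted p = 0.0151). Both were called, but LT15d is left at 0 counts, so both depend on how counts of 0 are handled. Without LT15d replicate 2 or 3 neither was called. Day 15 minus Day 1 was then −2.31 and −2.36 (adjusted p = 0.167 and 0.163), and Day 25 minus Day 15 was 2.03 and 2.07 (adjusted p = 0.249 and 0.241).

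**Figure D3:**
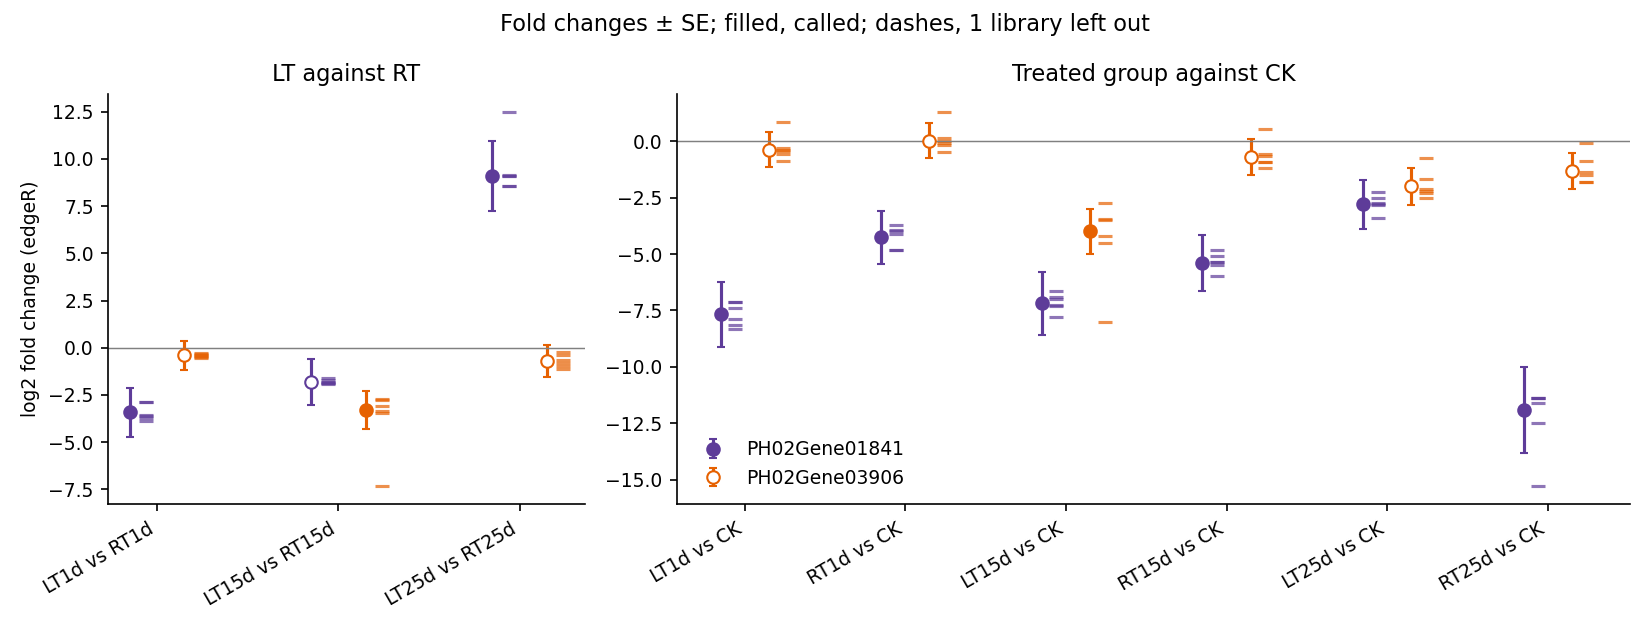
Log2 fold changes (points) with their SE (bars) for the 2 tested PPO genes, LT against RT on each day (left) and each treated group against CK (right). Filled points were called and dashes give the value with 1 library left out. PH02Gene01841 lies below 0 on Days 1 and 15 and at 9.11 on Day 25, and lies below 0 against CK in all 6 treated groups.

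The course within each temperature was compared next. PH02Gene01841 was higher in LT25d than in LT15d by 4.39 on the log2 scale (SE 1.27, adjusted p = 0.00681, 33% of genes called). It was lower in RT25d than in RT15d by −6.52 (SE 1.93, adjusted p = 0.0128, 19.5% of genes called). The log2 fold change at RT was −9.87 without RT25d replicate 2, the only RT25d library with counts, and 14 of 17 alternatives kept the call, which was lost with limma at either pseudocount and with LT15d, LT25d, and RT15d summed (adjusted p = 0.000123 to 0.365 over the 17). Earlier, LT15d differed from LT1d by 0.48 (SE 1.44, adjusted p = 0.792, 36.6% of genes called) and RT15d from RT1d by −1.14 (SE 1.09, adjusted p = 0.474, 11.1% of genes called), and neither was called. PH02Gene03906 was lower in LT15d than in LT1d by −3.62 (SE 1.02, adjusted p = 0.00551), or −7.63 without LT15d replicate 1, and was not called for its other 3 steps. Its increase of 1.99 between LT15d and LT25d (SE 1.05, adjusted p = 0.116) was called without LT15d replicate 1, where it was 6.01 (adjusted p = 0.0113). Both sizes without that library depend on how counts near 0 are handled. Leaving out LT15d replicate 2 or 3 gave an increase of 1.42 and 1.47, which was not called.

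Against culms before treatment, PH02Gene01841 was lower in all 6 treated groups. These comparisons share the CK libraries and are not independent. The log2 fold change was −7.67 in LT1d (SE 1.45, adjusted p = 0.00024, 34% of genes called), −4.25 in RT1d (SE 1.17, adjusted p = 0.00732, 22.8%), −7.19 in LT15d (SE 1.39, adjusted p = 0.000249, 38.6%), and −5.39 in RT15d (SE 1.25, adjusted p = 0.00188, 25.7%). Of 17 alternatives each, RT1d kept its call in 13, RT15d in 14, and LT15d in 16. The log2 fold change was −11.91 in RT25d (SE 1.89, adjusted p = 7.67e-05, 26.2%), where the size again depends on counts near 0. LT25d was the nearest to CK, at −2.80 (SE 1.09, adjusted p = 0.0398, 28.3%). This last call was lost when any of the LT25d libraries, CK replicate 2, or CK replicate 3 was left out (adjusted p = 0.0921 to 0.130), and only 5 of 17 alternatives kept it (adjusted p up to 0.975).

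The differences of PH02Gene01841 from CK were larger without CK replicate 1. As the gene was at 0 FPKM in that library, this and the smaller p-values follow from leaving it out. Without CK replicate 1, PH02Gene01841 was lower than CK by −8.31 in LT1d, −4.84 in RT1d, −7.80 in LT15d, −5.98 in RT15d, −3.40 in LT25d, and −12.50 in RT25d. All 6 were called with adjusted p of at most 1.34e-06. In contrast, PH02Gene03906 had its highest value in that library, and its comparisons with CK moved with it. With all libraries only LT15d was called, at −4.00 (SE 1.01, adjusted p = 0.00237). Without LT15d replicate 1 it was −8.01, a size that depends on how counts near 0 are handled. With all libraries LT25d, at −2.002, was just short of a call (SE 0.83, adjusted p = 0.0523). Without CK replicate 1 LT15d was still called at −2.76 (adjusted p = 0.0216), LT25d was at −0.76 (adjusted p = 0.448), RT25d was at −0.066 (−1.31 with all libraries), RT1d was at 1.28, and LT1d and RT15d changed sign to 0.85 and 0.55. In the fit without the filter, PH02Gene48718 was called lower than CK in 5 of the 6 treated groups, and LT25d, at −2.52 (SE 1.30, adjusted p = 0.149), was the exception. Without CK replicate 1 the same fit called all 6, with LT25d at −3.12 (SE 0.87, adjusted p = 0.00869).

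Genes with the most similar profile were found for each tested PPO gene by the highest Pearson r of log2(FPKM + 1) over the 21 libraries. For PH02Gene01841 these were PH02Gene15851, a hypothetical protein (r = 0.961), PH02Gene11130, a polyol transporter 5-like gene (0.955), and PH02Gene10322, which encodes fumarylacetoacetase, the last enzyme of tyrosine breakdown (0.945). PH02Gene15851 had 3.21, 366, and 532 FPKM in CK, and on Day 25 it had 98.3, 100.4, and 103 FPKM in LT25d, against 2.79, 2.61, and 1.15 FPKM in RT25d. PH02Gene10322 had 22.4, 262, and 365 FPKM in CK, so these genes were also low in CK replicate 1. For PH02Gene03906 they were PH02Gene03766, a 3-dehydrosphinganine reductase of sphingolipid synthesis (0.870), PH02Gene18853, a hypothetical protein (0.865), and PH02Gene02672, a cytochrome P450 709B2-like gene (0.857). PH02Gene03766 had 17.9, 3.59, and 5.09 FPKM in CK and its lowest values, 0.972, 1.73, and 1.01 FPKM, in LT15d. The ranking depends on the measure, since Spearman's rho and group means each named 3 other genes for PH02Gene01841. The libraries share groups, so these are likenesses only.

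The 2 genes on either side of each PPO gene on its scaffold were examined in the same way. The nearest neighbour of PH02Gene01841 was PH02Gene01840, an autophagy-related protein 8C gene that starts after a gap of 2371 bases. It had a mean of 101 FPKM in LT25d, against 68.5 FPKM in RT25d, with a log2 fold change of 0.59 that was under the threshold for a call. On the earlier days it was called higher, by 1.28 in LT1d than in RT1d (adjusted p = 9.92e-06) and by 1.64 in LT15d than in RT15d (adjusted p = 8.91e-07). PH02Gene01839, an aminomethyltransferase gene, was lower in LT1d than in RT1d by −2.44 (adjusted p = 8e-06). None of the 3 tested neighbours of PH02Gene01841 was called on Day 25. PH02Gene03907, a pentatricopeptide repeat gene 1442 bases from PH02Gene03906 on the other strand, had a log2 fold change of −0.87 between LT15d and RT15d (adjusted p = 0.0345), also under the threshold. Farther off, PH02Gene03903 was higher in LT15d than in RT15d by 5.87, opposite to PH02Gene03906. The nearest neighbours of PH02Gene48718, PH02Gene26146 and PH02Gene32933, lay 246382 and 224480 bases away, and neither was higher in LT25d.

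Genes of other oxidases, of phenol, aromatic amine, and flavonoid pathways, and of copper proteins were counted from lists of words in the descriptions. In these lists a gene rose or fell where it was called higher or lower in LT than in RT of the same day. No gene was described as a tyrosinase, aureusidin synthase, or phenolase. Of all tested genes, 20.8% were higher and 23.4% lower in LT1d than in RT1d, 19.3% higher and 20.8% lower in LT15d than in RT15d, and 11.3% higher and 13.2% lower in LT25d than in RT25d. With scaling to library size only, the median of all genes moved to −0.53 on Day 1 and −0.37 on Day 15 (−0.06 and −0.02 with the TMM scaling used here), and the higher genes fell to 29.2% and 32.3% of the called genes, against 47.0% and 48.0%. The PPO directions between LT and RT were the same under both scalings.

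Laccases, multicopper oxidases of the wall, had 45 genes of which 23 were tested. Of these, 14 rose and 4 fell in LT15d (median log2 fold change 2.95), and 11 rose and 3 fell in LT25d (median 1.45), whereas on Day 1 4 rose and 2 fell (median 0.37), which turned to 3 and 6 (median −0.11) with library size only. PH02Gene40848, a laccase-25-like gene with the highest mean in the list, had 47.9 ± 0.877 FPKM in LT15d, against 1.70 ± 0.346 FPKM in RT15d, and 16.3 ± 1.14 FPKM in LT25d, against 0.673 ± 0.543 FPKM in RT25d (SD, n = 3 each). It was thus higher on a day when PH02Gene03906 was lower, and also on the day when PH02Gene01841 was higher. Of 63 tested class III peroxidases, 20 rose and 19 fell in LT1d, 23 rose and 18 fell in LT15d, and 12 rose and 13 fell in LT25d. With library size only 19 rose and 22 fell in LT1d, and 18 rose and 20 fell in LT15d. Their most abundant member, PH02Gene06848, was at 2344 ± 95.0 FPKM in LT1d, against 972 ± 71.8 FPKM in RT1d. Of 3 tested L-ascorbate oxidases, 2 rose in LT1d and 2 fell in LT25d, and PH02Gene38433 was at 20.7 ± 1.71 FPKM in LT1d, against 0.643 ± 0.298 FPKM in RT1d.

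Lists of possible substrate supply were counted next, and whether PPO uses the products of these genes was not tested. In the list of caffeoyl supply (52 tested genes from phenylalanine ammonia-lyase to caffeoylshikimate esterase), 6 rose and 23 fell in LT25d, the day on which PH02Gene01841 was higher. The phenylalanine ammonia-lyase gene PH02Gene27016 was at 79.9 ± 0.971 FPKM in LT25d, against 1274 ± 354 FPKM in RT25d. On Days 1 and 15 the list was divided (13 rose and 9 fell, then 11 rose and 9 fell), and with library size only the balance turned to 6 and 17, then 8 and 15. Of 7 tested decarboxylases of aromatic amino acids, 5 rose and 1 fell in LT1d, 4 rose and 1 fell in LT15d, and 1 rose in LT25d. PH02Gene42909, aromatic-L-amino-acid decarboxylase-like, had 257 ± 2.04 FPKM in LT1d, against 9.56 ± 5.08 FPKM in RT1d, and did not differ detectably on Day 25 (27.9 ± 1.06 FPKM in LT25d, against 29.4 ± 27.0 FPKM in RT25d). Among 16 tested genes for flavonoids with an o-diphenol ring, 1 rose and 9 fell in LT1d, 4 rose and 7 fell in LT15d, and 2 rose and 2 fell in LT25d. PH02Gene48988, an anthocyanidin reductase gene, had 454 ± 11.8 FPKM in LT25d, against 205 ± 44.5 FPKM in RT25d.

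PPO needs copper, which in Arabidopsis reaches the thylakoid through chaperones and copper ATPases. Of 14 tested genes of copper delivery, 2 rose and 2 fell in LT1d, 5 rose and 2 fell in LT15d, and 4 rose and 4 fell in LT25d. With library size only 2 rose and 7 fell in LT1d, and 2 rose and 2 fell in LT15d. The copper chaperone gene PH02Gene05717 (ATX1) was at 350 ± 1.29 FPKM in LT25d, against 3109 ± 638 FPKM in RT25d. Its log2 fold change was −3.11 (SE 0.41, adjusted p = 1.07e-05), opposite in direction to PH02Gene01841. Outside RT25d the group means of PH02Gene05717 were 244 FPKM (CK) to 477 FPKM (RT1d), so it was high in RT25d rather than low in LT25d. Whether PH02Gene05717 serves PPO was not tested. Both plastocyanin genes, for the copper protein of the thylakoid lumen, fell in LT1d and LT15d and were not called on Day 25. PH02Gene20101 was at 1.26 ± 0.0713 FPKM in LT1d, against 61.0 ± 10.7 FPKM in RT1d, in the libraries where the chlorophyll a-b binding genes were also lowest.

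**Figure D4:**
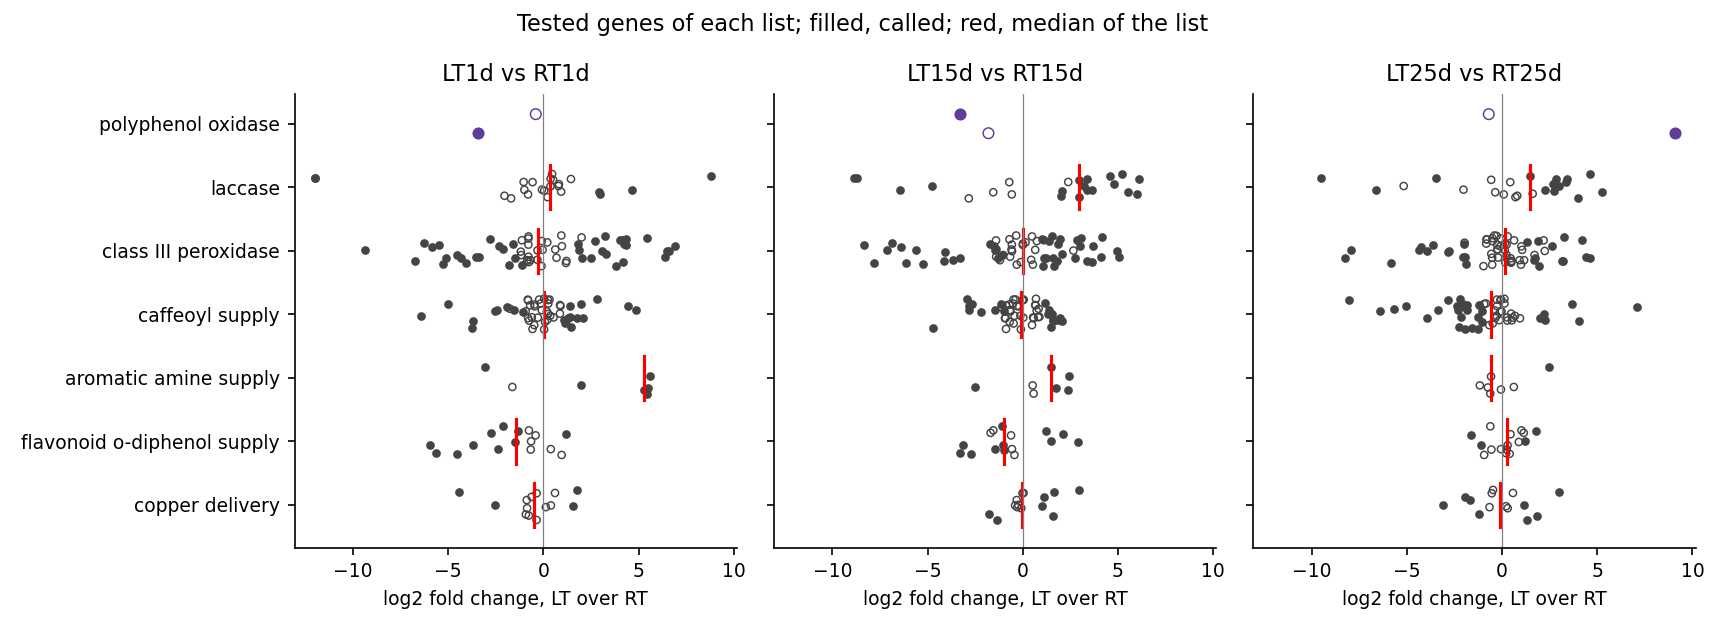
Log2 fold change of LT over RT for each tested PPO gene (purple) and for each tested gene of 6 lists (black), on Days 1, 15, and 25. Filled points were called and the red line is the median of a list. On Day 25 PH02Gene01841 lies at 9.11, right of every listed gene, while the median of caffeoyl supply is −0.58.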

How the data were processed

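The 21 culm libraries were grouped by their labels. The methods of the study name HISAT2 for mapping to moso bamboo and StringTie for assembly, and the authors deposited FPKM values (StringTie and ballgown) for 42460 genes. The submitters' processing notes name cutadapt, FastQC, and Salmon. Estimated counts, whole numbers without normalization, were also deposited by the authors, and for their tool, strandedness, and multi-mapped reads the sources used here give no statement. Estimated counts summed to 33957497 to 50338658 per library, which is not a number of read pairs. Intervals and floors cover counting error only.

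The main model had 1 mean for each of the 7 groups, in edgeR 4.0.16 (glmQLFit and glmQLFTest, TMM scaling, R 4.3.3) on genes with at least 1 FPKM in at least 3 libraries. The SE is the absolute log2 fold change over the square root of F. Sums were compared by exact permutation. The scripts were tested on simulated data with the same spread for every gene and changes in LT1d only. That run does not bear on the PPO results. Named genes were all PPO genes, the 3 most similar genes per tested PPO gene, 2 neighbours on each side, and the member with the highest mean FPKM in each list. PH02Gene28608 was added after its values were seen. Members and lists were chosen with earlier results of these data known. Alternatives were other scalings and filters, DESeq2 1.42.0, limma 3.58.1 with pseudocounts of 1 and 0.1, a replicate block, the compared libraries alone, a fit with the libraries of LT15d, of LT25d, and of RT15d added together, and each library left out. Counts divided by 4, and the unfiltered fit without CK replicate 1, were added after the data were seen. No reference sequences were used here.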

Additional observations from a re-analysis of the deposited data

Results flagged for a closer look

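The LT effect on PH02Gene01841 differed between days by the interaction test. It was higher on Day 25 than on Day 15 by 10.91 on the log2 scale (edgeR, adjusted p = 0.000944) and higher on Day 25 than on Day 1 by 12.53 (adjusted p = 0.000159). Among all tested genes, 29.7% and 44.9% were called for these 2 differences. All 3 LT25d libraries (7.18 to 8.005 FPKM) lay above all 3 RT25d libraries (0 to 0.0395 FPKM). The LT libraries lay below the RT libraries on Days 1 and 15. However, LT15d against RT15d was not called (edgeR, adjusted p = 0.210), and 10 of 17 alternatives kept the call of LT1d against RT1d. Both interaction differences were called when each of the 12 libraries they rest on was left out, with ranges of 10.37 to 14.27 and 11.98 to 15.89. Groups of 3 libraries were not tested for single outliers.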

How the results depend on the processing

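For PH02Gene01841, 255 of 290 alternative values kept direction and call. LT25d against RT25d and Day 25 minus Day 1 were called in every alternative run. LT1d against RT1d lost its call with limma at both pseudocounts (−1.65 and −3.37) and with the 3 groups summed (−3.41), and was −3.90 to −2.87 with a library left out. LT15d against RT15d (−1.82) and RT15d against RT1d (−1.13) were called with the compared libraries alone. LT25d against CK lost its call with library size only (−2.38), DESeq2 (−2.80), limma at 1 (−0.89, and turned to 0.070 at 0.1), the compared libraries alone (−2.80), and the groups summed (−2.79), and was −3.40 to −2.25 with a library left out. RT1d against CK lost it with limma (−2.10 and −1.41), the compared libraries (−4.25), and the groups summed (−4.25), and RT15d against CK with limma at 0.1 (−2.44), the compared libraries (−5.39), and the groups summed (−5.39). RT25d against RT15d lost it with limma (−1.15 and −3.59) and the groups summed (−6.56). Summing also ended LT15d against CK (−7.15), LT25d against LT15d (4.37), and Day 25 minus Day 15 (10.93). LT15d against LT1d was −0.051 to 0.96 with a library left out.

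For PH02Gene03906, 246 of 274 kept direction and call. LT15d lost its call with limma at 1 against RT15d (−0.76), CK (−0.87), and LT1d (−0.73), with the groups summed (−3.27, −3.97, and −3.59), and against CK with the compared libraries (−3.94). LT25d against CK was called with DESeq2 (−2.02) and with counts divided by 4 (−2.14), and Day 15 minus Day 1 with DESeq2 (−2.97) and the compared libraries (−2.87). Signs turned for LT1d (0.066) and RT15d (0.12) against CK with limma at 0.1, for RT1d against CK with counts divided by 4 (−0.014), and for Day 25 minus Day 1 with library size only (0.18) and limma (0.25 and 0.29). With a library left out, the ranges were −0.88 to 0.85 (LT1d against CK), −2.50 to −0.76 (LT25d against CK), −0.47 to 1.28 (RT1d against CK), −1.21 to 0.55 (RT15d against CK), 1.42 to 6.01 (LT25d against LT15d), −6.90 to −2.31 (Day 15 minus Day 1), 2.03 to 6.61 (Day 25 minus Day 15), and −0.70 to 0.19 (Day 25 minus Day 1). The summed fit has fewer libraries by construction. For the other changes, in both genes, the cause was not tested.

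Replicate numbers did not pair the libraries (correlations of deviations −0.13 to 0.02). With a replicate block LT25d against CK was −2.38 for PH02Gene01841 and not called, and the block changed no other PPO call. The count of called genes was over 1.5 times smaller with a mean FPKM of at least 5, where fewer genes were tested (7057, 6226, and 3489 on Days 1, 15, and 25 of LT against RT, against 13232, 12001, and 7332, and 1549 to 7708, against 3308 to 13422, in the other 13 comparisons). With the groups summed it was 6006 and 3497 on Days 15 and 25, 4347 (against 8468) for LT25d and 3241 (7700) for RT15d over CK, 3483 (9883) for LT25d over LT15d, 197 (3308) for RT15d over RT1d, 2093 (5834) for RT25d over RT15d, and 3958 (9938) and 1354 (8877) for Day 15 minus Day 1 and Day 25 minus Day 15. RT25d against CK had 4783 (7844) with the compared libraries alone.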

Other observations

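CK replicate 1 had 0 counts of PH02Gene01841, against 5688 and 7068 counts in CK replicates 2 and 3. Of the 1857 genes with at least 50 FPKM in both CK replicates 2 and 3, PH02Gene01841 was the 1 gene with 0 counts in CK replicate 1. Of the 16244 genes with at least 5 FPKM in every LT25d library, 22 were under 0.1 FPKM in every RT25d library, and PH02Gene01841 was among them. The cuts lie close to the values of PH02Gene01841 itself (55.0 and 71.5 FPKM in CK replicates 2 and 3, 7.18 to 8.005 FPKM in LT25d). Its place in both counts is therefore no test of how rare such values are.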
